A study of Homo sapiens with 3 samples.

Results

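The genes described here are 15 enzymes of glycolysis and 18 genes known for their response to low oxygen, 33 of the 32738 genes of a merged table of UMI counts from chambered cardiac organoids (CCOs). They were taken by name, with earlier results of these data known, and all 33 are in the table. The glycolytic enzymes are HK1, HK2, GPI, PFKL, PFKM, PFKP, ALDOA, ALDOC, TPI1, GAPDH, PGK1, PGAM1, ENO1, PKM and LDHA. The hypoxia-response genes are ADM, BNIP3, BNIP3L, CA9, DDIT4, EGLN1, EGLN3, ANKRD37, NDRG1, P4HA1, P4HA2, FAM162A, KDM3A, INSIG2, MXI1, LOX, PDK1 and STC2.

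The CCOs were grown from H7, a human embryonic stem cell line, by a cardiomyocyte (CM) differentiation with CHIR99021 and IWP-2, after which the cells were aggregated with Matrigel on day 7. They stayed in cardio-sphere growth medium (CGM) in multi-well plates until day 14 and in RPMI-1640 with B27 in a spinner flask from then on. Dissociated organoids were profiled on D8, D14 and D21 as Chromium droplet libraries, in which a UMI marks each captured mRNA molecule. Each day has 1 library of 1 cell line. The effects of time, medium, vessel and library therefore cannot be told apart, days could not be tested against each other, and every interval below covers counting error only.

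Glycolysis splits glucose into pyruvate with a small yield of ATP, and lactate dehydrogenase turns the pyruvate into lactate when it does not enter the mitochondria. When oxygen is low, the prolyl hydroxylases encoded by EGLN1 and EGLN3 no longer mark the HIF alpha subunits for degradation by VHL, and HIF then switches on most of the glycolytic enzymes together with genes of mitophagy, matrix and signalling. The fetal heart relies largely on glycolysis, and after birth the heart muscle turns to fatty acids.

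After a filter on genes and mitochondrial UMIs, the libraries of D8, D14 and D21 kept 2657, 3585 and 1946 cells, whose median depth was 12282 to 15316 UMIs. Clustering, in which none of the 33 genes was used, gave CM-like cells (494, 700 and 535 cells), dividing cells (346, 465 and 173), endothelial-like cells (49, 53 and 38), fibroblast-like cells (825 at D21) and hepatic-like cells (306 at D21), beside clusters that carry no name and are given by number with their leading genes. The CM-like cells of each day lay almost wholly in clusters of their own (cluster 6 at D8, cluster 3 at D14, clusters 7 and 18 at D21), so every comparison of CM-like cells between days sets different clusters side by side. TNNT2, the cardiac troponin T gene, had 1711, 3727 and 8951 CPM in CM-like cells of the successive days, where CPM scales the UMIs of each group to a common total, against 111, 298 and 741 CPM in all other cells. In CM-like cells the median mitochondrial share was 3.0, 5.5 and 8.4% of UMIs, and the median ribosomal share was 24.4, 15.5 and 16.0%. The mitochondrial limit of 10% removed 4375 of 9149 barcodes at D21, against 236 at D8 and 496 at D14. Libraries shared 25 to 59 barcodes, of which 9 to 14 were kept. AFP, a liver gene, reached 512 CPM in CM-like cells of D21 and 11279 CPM in hepatic-like cells, and whether this came from free RNA or from droplets with more than 1 cell was not tested.

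Both groups of genes were high in D8 and D14 and low in D21. In CM-like cells the 15 glycolytic enzymes summed to 25730, 30065 and 10053 CPM on the successive days. In all other cells the sums were 17419, 16960 and 7376 CPM. The 18 hypoxia-response genes summed to 3371, 3143 and 599 CPM in CM-like cells and to 3219, 2363 and 779 CPM in other cells. CM-like cells therefore had a higher glycolytic sum than the pool of other cells on each day. The hypoxia-response sum was the lower one in CM-like cells at D21. Endothelial-like cells of D21, 38 cells, had a glycolytic sum of 10737 CPM, above that of CM-like cells. Their median cell was lower, with 90.9 against 94.5 glycolytic UMIs per 10000. The other groups of D21 ranged from 4240 CPM in hepatic-like cells to 9136 CPM in dividing cells. GAPDH, often used as a reference gene, made up much of the glycolytic sum, and without it the sums in CM-like cells were 16372, 18482 and 5004 CPM.

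Single cells showed the same order. The median CM-like cell had 253, 295 and 94.5 glycolytic UMIs per 10000 at D8, D14 and D21, and 33.0, 30.9 and 5.77 hypoxia-response UMIs per 10000. At D14 the 10th percentile of CM-like cells was 176 glycolytic UMIs per 10000, above the 90th percentile of CM-like cells at D21, which was 132. For the hypoxia-response genes the 10th percentile at D14 was 14.5 and the 90th percentile at D21 was 9.92 UMIs per 10000, so the bulk of the cells of these days did not overlap in either list.

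**Figure D1:**
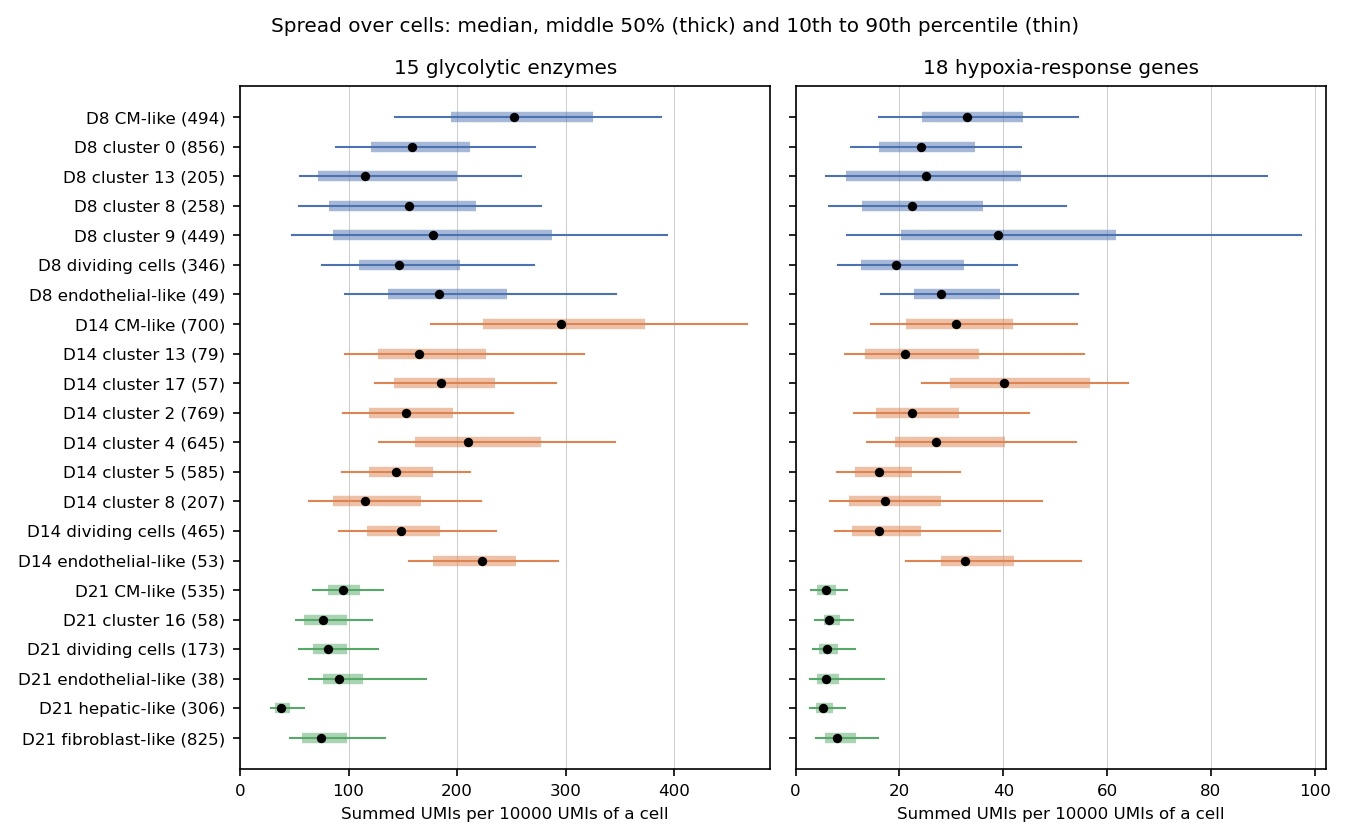
Summed UMIs of the 15 glycolytic enzymes (left) and of the 18 hypoxia-response genes (right) per 10000 UMIs of a cell, for each cell group and day, with the number of cells in parentheses. The point is the median cell, the thick bar the middle 50% and the thin line the 10th to 90th percentile of cells, and the median of each D21 group lies to the left of the medians of all D8 and D14 groups.

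The comparison of D14 with D8 in CM-like cells asked whether the genes changed while the CCOs were in CGM. Most members stayed near their D8 level. Of the 15 glycolytic enzymes, HK2 and PFKP were higher at D14 by 1.5-fold or more and 0 were lower, where 20.4% of 9048 genes tested were higher and 12.1% lower by that fold. The median log2 ratio was 0.16, against 0.02 over all genes. With CM-like cells taken instead by a gate, at least 5 of 9 CM markers with a UMI, the median was -0.04 and 0 enzymes were higher, so this small excess rests on how the cells were taken. At D14 the gate took 1684 cells, most of which clustering placed outside the CM-like cells. HK2, which phosphorylates glucose and is the inducible hexokinase, went from 64.8 to 116 CPM (log2 ratio 0.84, interval 0.69 to 1.00), although its ratio was -0.09 in cells taken by the gate. PFKP, the platelet-type phosphofructokinase, went from 210 to 403 CPM (log2 ratio 0.94, interval 0.86 to 1.02). The other 13 enzymes lay between PGAM1 at -0.41 and HK1 at 0.51.

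The hypoxia-response genes had a median log2 ratio of 0.01 over the 16 members that reached 10 CPM on at least 1 of the days. ADM, EGLN1, EGLN3 and PDK1 were higher at D14 by 1.5-fold or more, and DDIT4 was lower, where 20.4% of all genes were higher and 12.1% lower. ADM, the vasodilator peptide adrenomedullin, went from 13.5 to 34.8 CPM (log2 ratio 1.36, interval 1.05 to 1.69), and this ratio was -0.16 at a clustering resolution of 0.4, which put 1803 cells of D8 among the CM-like cells. PDK1, the kinase that shuts pyruvate dehydrogenase, went from 167 to 283 CPM (log2 ratio 0.76). EGLN1 and EGLN3, the oxygen-sensing hydroxylases that are themselves HIF targets, went from 53.1 to 92.9 CPM and from 28.0 to 51.7 CPM. DDIT4, an inhibitor of mTORC1 that also answers to other stresses, went from 572 to 261 CPM (log2 ratio -1.13).

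From D14 to D21, when the CCOs were in the spinner flask, nearly all members became lower in CM-like cells. Of the 15 glycolytic enzymes 12 were lower by 1.5-fold or more, where 25.2% of 9048 genes were, and PFKM alone was higher, where 11.6% of genes were. Their median log2 ratio was -1.51. Of the 16 hypoxia-response genes at 10 CPM or more, 15 were lower by 1.5-fold or more, with a median of -2.29. The median over all genes was -0.14, and with TMM factors, which moved it to 0.11, the medians were -1.29 and -2.06. These libraries differ also in the mitochondrial share of CM-like cells given above, whose part in the ratios was not tested; at a mitochondrial limit of 20%, with 1461 CM-like cells at D21, the medians were -1.57 and -2.37. In cluster 18, 50 shallower cells of D21 among the CM-like cells, the hypoxia-response genes summed to 914 CPM, against 576 CPM in the 484 cells of cluster 7.

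**Figure D2:**
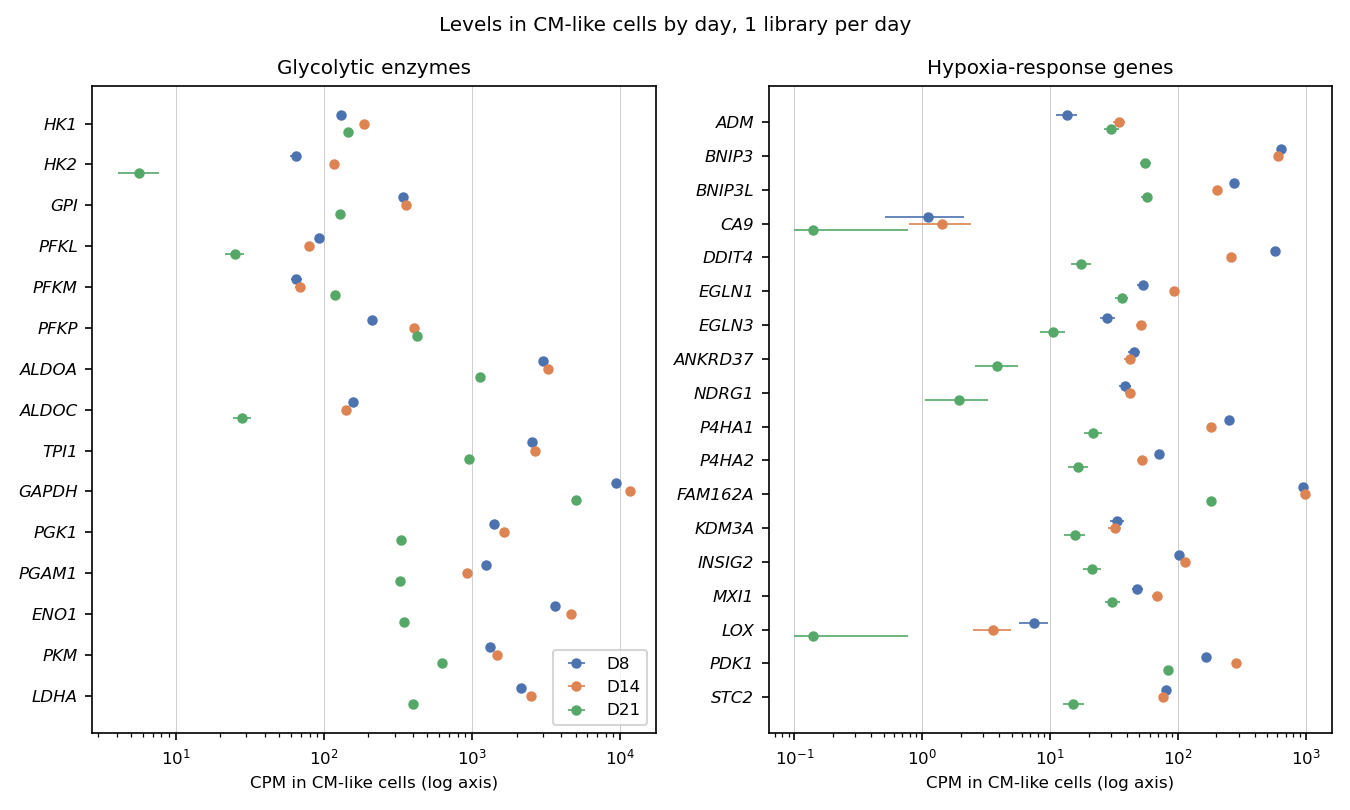
Level of each member in CM-like cells in CPM on a log axis, at D8 (blue), D14 (orange) and D21 (green), with 1 library per day and 95% counting intervals. The D21 point lies left of the D14 point for all members except PFKM and PFKP, and the gap is widest for HK2, ENO1, DDIT4 and NDRG1 among members at 10 CPM or more.

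The first steps of glycolysis split by isoform. HK1, the constitutive hexokinase, had 187 CPM before and 146 CPM after (log2 ratio -0.35, interval -0.46 to -0.24), which did not pass 1.5-fold. HK2 went from 116 to 5.68 CPM (log2 ratio -4.32, interval -4.84 to -3.90). GPI, which makes fructose 6-phosphate, went from 357 to 129 CPM (log2 ratio -1.46). PFKM, the phosphofructokinase of muscle, went from 68.9 to 119 CPM (log2 ratio 0.79, interval 0.64 to 0.94), although its ratio was -0.17 in cells taken by the gate. The gate took 1568 of the 1946 cells of D21, and clustering placed most of these 1568 outside the CM-like cells. PFKP stood at 403 and 428 CPM (log2 ratio 0.09), and PFKL, the liver-type enzyme, went from 79.9 to 24.9 CPM (log2 ratio -1.67, interval -1.92 to -1.44). HK1, PFKM and PFKP were thus the members of the list that were not lower past the fold.

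The listed enzymes of the lower part of the pathway were all lower at D21. ALDOA, TPI1, PGAM1, PKM and GAPDH had log2 ratios of -1.54, -1.46, -1.51, -1.23 and -1.20, from 3276 to 1125 CPM for ALDOA, the aldolase of muscle, and from 11582 to 5049 CPM for GAPDH. PGK1, which makes the first ATP of the pathway, went from 1643 to 334 CPM (log2 ratio -2.30). ALDOC went from 140 to 28.1 CPM (log2 ratio -2.31). ENO1, the general enolase, went from 4642 to 348 CPM (log2 ratio -3.74, interval -3.80 to -3.68), beside -1.51 for PGAM1 and -1.23 for PKM, the enzymes before and after it. LDHA, the lactate-forming subunit, went from 2505 to 397 CPM (log2 ratio -2.66, interval -2.71 to -2.60). GAPDH, ENO1, LDHA, PGAM1 and TPI1 have processed pseudogenes, so their counts are uncertain where the counting divided reads between copies.

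Among the hypoxia-response genes, those of mitochondria and mitophagy went down together. BNIP3, which marks mitochondria for removal, had 637, 611 and 55.7 CPM on the successive days (log2 ratio of D21 over D14 -3.45, interval -3.60 to -3.31). Its relative BNIP3L stood at 276, 203 and 56.8 CPM, and FAM162A, a mitochondrial protein, at 944, 992 and 180 CPM. PDK1 went back from 283 to 84.4 CPM (log2 ratio -1.74), below its level of 167 CPM at D8.

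NDRG1, a stress-responsive gene, and DDIT4 had the lowest ratios of the hypoxia-response genes. NDRG1 stood at 38.7, 42.2 and 1.94 CPM, the last from 14 UMIs (log2 ratio -4.35, interval -5.33 to -3.68). DDIT4 was already lower at D14 and went from 261 to 17.5 CPM (log2 ratio -3.89, interval -4.17 to -3.65). STC2, the secreted stanniocalcin, went from 75.9 to 15.2 CPM (log2 ratio -2.31). ADM alone did not pass the fold, with 34.8 CPM before and 30.2 CPM after (log2 ratio -0.20, interval -0.46 to 0.04), and its sign turned with the clustering resolution and the scaling.

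The oxygen sensors EGLN1 and EGLN3 had log2 ratios of -1.35 and -2.28 and ended at 36.3 and 10.5 CPM. Of the collagen prolyl hydroxylase subunits, P4HA1 went from 182 to 21.8 CPM (log2 ratio -3.06) and P4HA2 from 52.6 to 16.6 CPM (log2 ratio -1.65, but 0.27 in cells taken by the gate). ANKRD37, a small ankyrin-repeat protein, stood at 45.4, 41.9 and 3.88 CPM (log2 ratio of D21 over D14 -3.39). INSIG2, which holds back cholesterol synthesis, MXI1, an antagonist of MYC, and KDM3A, a histone demethylase, had log2 ratios of -2.40, -1.14 and -1.03. CA9, a carbonic anhydrase at the cell surface, and LOX, which crosslinks collagen, did not reach 10 CPM in CM-like cells on any day, with 1.12, 1.43 and 0.139 CPM for CA9 and 7.44, 3.59 and 0.139 CPM for LOX, where the D21 value is 1 UMI in each case.

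The promoters of members that became lower together are shown with the letters of the core HIF response element, ACGTG or GCGTG, in capitals on either strand. Windows of 250 bases before to 50 bases after the start of a gene were taken from RefSeq on GRCh38.p14, since no genome of the files' build was used here, and 31 of the 33 members matched, with 58 windows. BNIP3L and NDRG1 were not matched. The windows below are those of the 4 members with the lowest log2 ratio of D21 over D14 in CM-like cells among members with 1 listed start, and of ADM, the hypoxia-response member of that kind whose ratio was closest to 0, so the choice used these ratios and supports nothing about them. DDIT4 is on chr10:72273674-72273973 (plus strand), ENO1 on chr1:8878637-8878936 (minus), BNIP3 on chr10:131981874-131982173 (minus), ANKRD37 on chr4:185396591-185396890 (plus) and ADM on chr11:10304823-10305122 (plus).
DDIT4: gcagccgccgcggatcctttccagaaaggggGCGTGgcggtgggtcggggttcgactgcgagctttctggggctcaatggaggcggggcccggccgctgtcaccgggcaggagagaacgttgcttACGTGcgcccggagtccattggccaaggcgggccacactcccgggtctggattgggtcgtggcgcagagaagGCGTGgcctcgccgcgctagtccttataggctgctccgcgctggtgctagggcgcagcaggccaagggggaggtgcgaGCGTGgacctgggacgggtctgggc
ENO1: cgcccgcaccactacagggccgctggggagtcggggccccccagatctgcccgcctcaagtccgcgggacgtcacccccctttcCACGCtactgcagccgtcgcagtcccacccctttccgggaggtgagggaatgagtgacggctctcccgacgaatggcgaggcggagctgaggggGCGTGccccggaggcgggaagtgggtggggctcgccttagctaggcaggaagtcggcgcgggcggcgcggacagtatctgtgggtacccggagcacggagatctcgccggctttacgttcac
BNIP3: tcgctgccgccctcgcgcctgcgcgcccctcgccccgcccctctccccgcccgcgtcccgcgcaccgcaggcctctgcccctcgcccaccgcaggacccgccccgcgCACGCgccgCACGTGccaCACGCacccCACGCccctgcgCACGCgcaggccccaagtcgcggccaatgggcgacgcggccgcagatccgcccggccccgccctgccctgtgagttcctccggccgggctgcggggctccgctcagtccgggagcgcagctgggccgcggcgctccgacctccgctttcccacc
ANKRD37: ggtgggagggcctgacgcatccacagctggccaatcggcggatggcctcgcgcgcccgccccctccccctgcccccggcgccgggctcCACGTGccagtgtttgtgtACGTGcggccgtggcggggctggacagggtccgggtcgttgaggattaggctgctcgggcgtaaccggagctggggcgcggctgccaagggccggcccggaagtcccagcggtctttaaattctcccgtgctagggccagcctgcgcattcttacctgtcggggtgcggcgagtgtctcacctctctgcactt
ADM: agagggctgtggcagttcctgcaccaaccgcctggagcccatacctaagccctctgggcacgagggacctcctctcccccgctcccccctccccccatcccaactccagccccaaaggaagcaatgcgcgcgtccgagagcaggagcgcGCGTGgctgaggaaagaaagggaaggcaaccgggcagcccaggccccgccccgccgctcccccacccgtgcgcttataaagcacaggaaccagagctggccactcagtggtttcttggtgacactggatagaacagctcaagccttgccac
DDIT4 holds 4 matches, ENO1 2, BNIP3 6, ANKRD37 3 and ADM 1, where a CACGTG, which is also the E-box, counts once on each strand. Of all 35116 windows 48.4% held at least 1 match, and of the 58 windows of members 69.0%. At the level of genes, 28 of the 31 members had a match in at least 1 of their windows, against 52.4% of 27305 genes, although members had more windows per gene, and 8 had 4 or more matches in a window, against 5.33%. A match is a run of letters and not a site of binding, which was not measured.

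Isoform shares within a family changed with the days in CM-like cells. These shares are of summed UMIs, which count molecules by their 3' end and are not divided by length, so the shift between days and not the level is compared. HK2 had 33.1% of the UMIs of HK1 and HK2, then 38.4% (interval 36.6 to 40.2%), and finally 3.74% at D21 (interval 2.70 to 5.05%). LDHA had 64.6, 71.7 and 23.3% of the UMIs of LDHA and LDHB, so LDHB, the subunit typical of the adult heart, held most of them at D21 alone, with a level of 1306 CPM against 988 CPM at D14. Among the phosphofructokinases, PFKL had 25.3, 14.5 and 4.36%, PFKM 17.6, 12.5 and 20.8% and PFKP 57.0, 73.0 and 74.8%. P4HA2 had 22.0, 22.4 and 43.3% of the UMIs of P4HA1 and P4HA2, EGLN3 34.6, 35.8 and 22.5% of those of EGLN1 and EGLN3, and ALDOC 4.94, 4.11 and 2.44% of those of ALDOA and ALDOC.

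From D14 to D21 the shares of HK2, LDHA and P4HA2 moved the same way in other cells, with less change for LDHA, while from D8 to D14 the HK2 share was lower in other cells and higher in CM-like cells. There HK2 had 45.3, 31.4 and 10.3%, LDHA 60.4, 62.9 and 43.3% and P4HA2 17.3, 20.3 and 45.8%. PFKL had 37.8, 31.0 and 41.5% in other cells. The value at D21 is mostly that of hepatic-like and fibroblast-like cells, and the share was 13.7% in cluster 16, 58 cells of D21 led by CXCL14 and MYL2, and 5.51% in the 37 dividing cells of cluster 10. In hepatic-like cells PFKL had 70.2% (interval 66.9 to 73.3%) and ALDOC 19.8%, the largest shares of these isoforms among the named groups of that day.

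**Figure D3:**
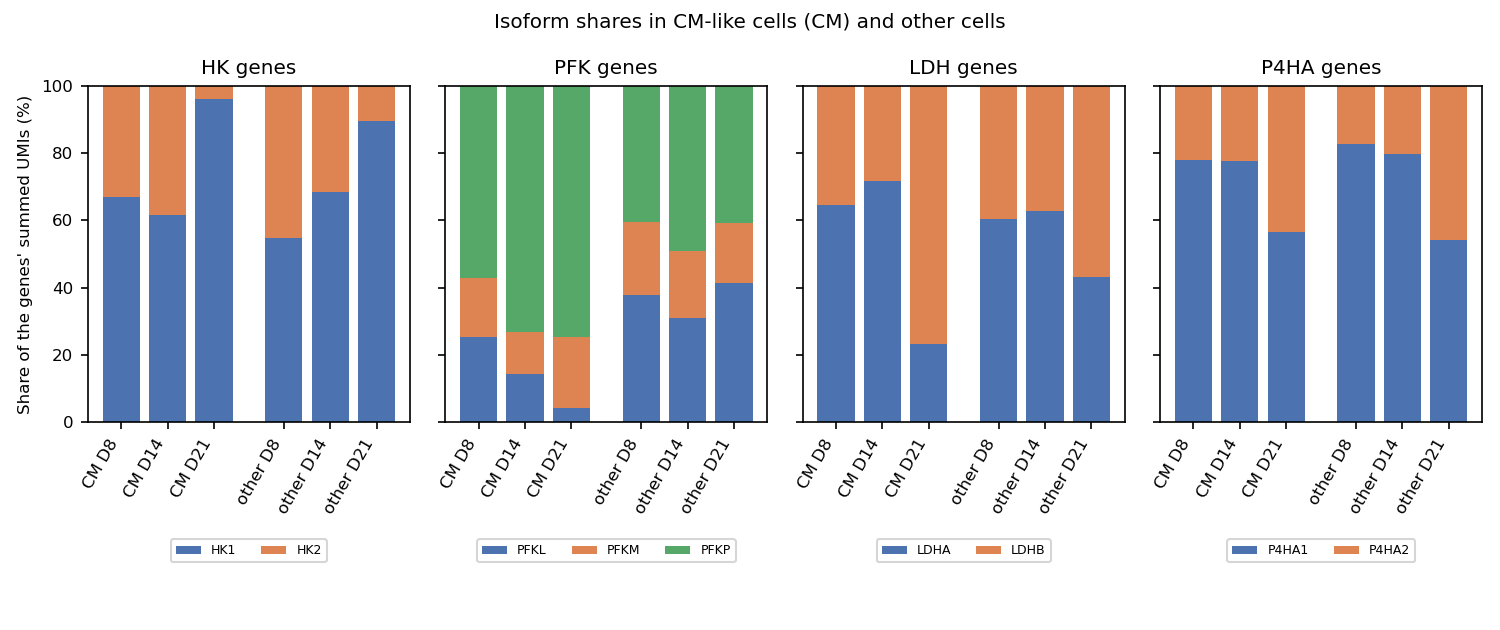
Share of each isoform in the summed UMIs of its family, in percent, for hexokinases, phosphofructokinases, lactate dehydrogenases and collagen prolyl hydroxylases, in CM-like cells (CM) and all other cells at D8, D14 and D21. In CM-like cells of D21 HK2 is 3.74% of its family, PFKL 4.36% and LDHA 23.3%.

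Genes around these members, from lists of the same pathways, are given for CM-like cells. Of 14 other glycolytic genes at 10 CPM or more, 6 were higher from D8 to D14 and 0 lower by 1.5-fold or more, where 20.4% and 12.1% of all genes were, and from D14 to D21 10 were lower and 2 higher, where 25.2% and 11.6% of all genes were. The glucose transporter SLC2A3 stood at 345, 921 and 62.1 CPM, the lactate exporter SLC16A3 went from 294 CPM at D14 to 22.7 CPM at D21, and PFKFB4, which sets fructose 2,6-bisphosphate, from 33.3 to 1.39 CPM. PGAM2, the mutase of muscle, stood at 16.9, 87.9 and 430 CPM and SLC2A4, the glucose transporter that insulin recruits, at 3.60, 11.4 and 19.1 CPM, and these were the 2 genes that were higher from D14 to D21. ENO3, the enolase of muscle, stood at 324, 570 and 434 CPM.

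Of 30 other hypoxia-response genes at 10 CPM or more, 10 were higher and 1 lower from D8 to D14, and 27 were lower and 0 higher from D14 to D21, with a median log2 ratio of -2.29 and the same shares of all genes. Of these genes SLC2A1, SLC2A3, PFKFB3, PFKFB4 and ENO2 stand in both lists and are counted in each. NDUFA4L2, a mitochondrial protein induced by HIF, stood at 18.7, 56.9 and 1.39 CPM, and VLDLR, the lipoprotein receptor, went from 30.6 CPM at D8 to 81.0 CPM at D14. The gene of HIF1A itself, which is controlled mostly as a protein, had a log2 ratio of 0.23 from D14 to D21. Of 9 oxygen-sensing genes at 10 CPM or more, EPAS1, the HIF-2 alpha subunit, was higher at D21 (1.84 to 12.3 CPM) and VHL lower (18.7 to 10.3 CPM), and HIF3A went from 26.7 CPM at D8 to 97.6 CPM at D14.

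Genes of pyruvate entry and its control and genes of beta oxidation had medians above 0 from D14 to D21. The counts of their members are to be read against the same shares of all genes. The pyruvate list also holds PDK2 and PDK3, kinases of the same family as PDK1, so its median gives no direction of pyruvate entry. Of 9 genes of pyruvate entry, MPC1, the pyruvate carrier, was higher at D14 (58.8 to 114 CPM). From D14 to D21 PDK2 (26.1 to 50.3 CPM) and DLD (58.7 to 109 CPM) were higher, and PDK3 (45.3 to 10.8 CPM) and DLAT (133 to 49.3 CPM) lower, with a median log2 ratio of 0.29. Of 14 genes of beta oxidation, FABP3, HADHB and ETFDH were higher and ACADS lower from D14 to D21, with a median of 0.37. FABP3, the fatty acid carrier of heart muscle, stood at 32.5, 321 and 1154 CPM.

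The same days were then compared in cells other than CM-like cells. From D8 to D14, PFKP was higher and HK2 and PGAM1 lower by 1.5-fold or more among the 15 glycolytic enzymes, where 18.4% of 9060 genes were higher and 5.94% lower, and the median was -0.04. Of the 17 hypoxia-response genes at 10 CPM or more, 5 were lower and 0 higher, namely ADM, DDIT4, ANKRD37, NDRG1 and KDM3A. Each of these 5 was higher in cluster 9 or cluster 13 of D8, described below, than in CM-like cells of D8. ADM went from 76.4 to 33.8 CPM (log2 ratio -1.18) and HK2 from 59.8 to 32.1 CPM (log2 ratio -0.90), both against the direction in CM-like cells, and this difference has no replicate check. The mix of other cells also changed, since cluster 9 had 449 cells at D8 and 12 at D14, and cluster 13 had 205 and 79. Cluster 9 held 986 of the 2314 HK2 UMIs of other cells at D8. The part of this mix in the ratios of other cells was not tested.

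From D14 to D21, 14 of the 15 glycolytic enzymes were lower in other cells by 1.5-fold or more, where 26.5% of 9298 genes were, with a median log2 ratio of -1.25 against -0.24 over all genes, and 0 were higher, where 11.0% of genes were. PFKL was the one that was not, with 66.2 and 58.7 CPM. PFKM, higher in CM-like cells, was lower here, from 42.3 to 25.2 CPM (log2 ratio -0.75, interval -0.89 to -0.61). Of 16 hypoxia-response genes 13 were lower, with a median of -1.39, and ADM (33.8 and 30.7 CPM), STC2 (62.9 and 45.7 CPM) and P4HA2 (52.3 and 76.7 CPM) did not pass the fold. BNIP3 went from 350 to 60.3 CPM, ENO1 from 2490 to 705 CPM and LDHA from 1584 to 459 CPM. A sum over other cells also follows their mix, since the fibroblast-like and hepatic-like clusters had 825 and 306 cells at D21 and 5 and 6 cells at D14.

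**Figure D4:**
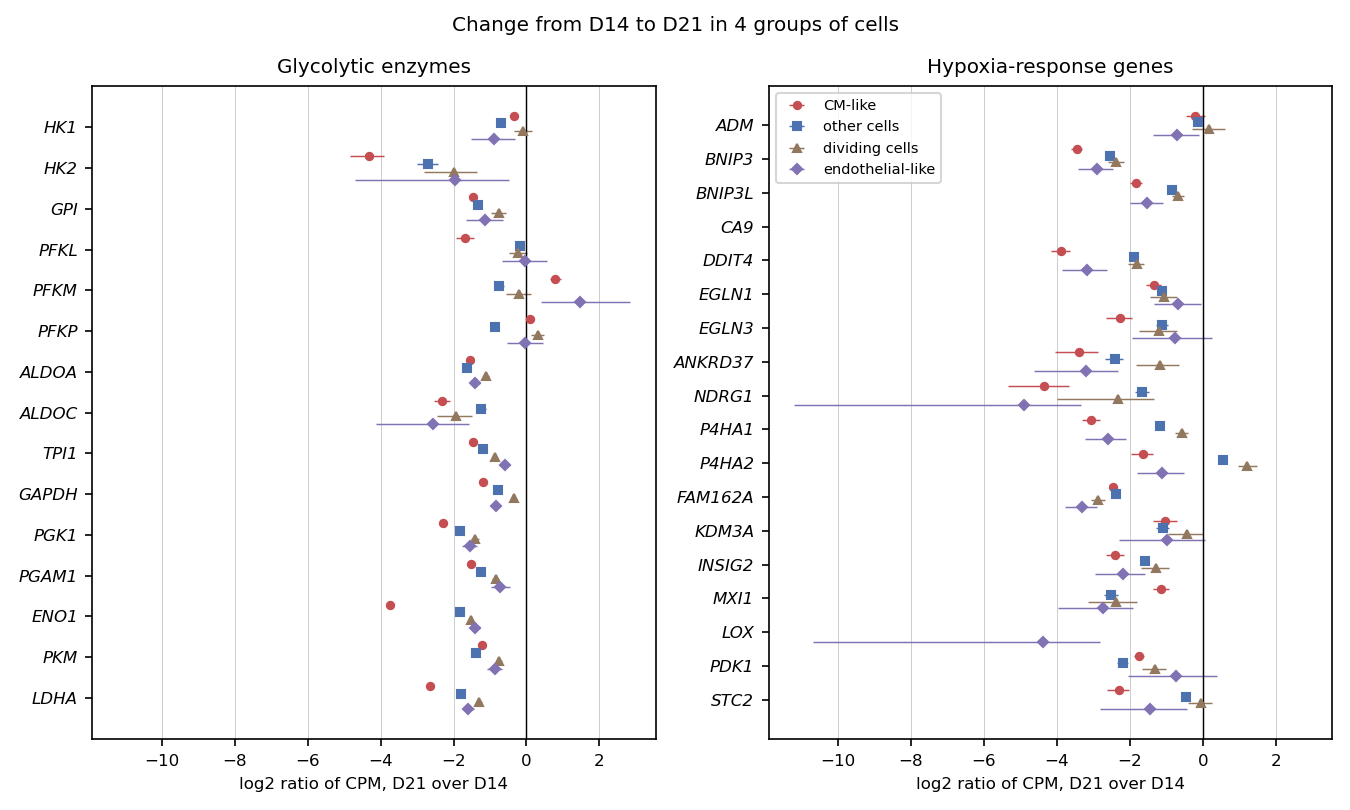
Log2 ratio of CPM of D21 over D14 for each member at 10 CPM or more on at least 1 of these days, in CM-like cells, all other cells, dividing cells and endothelial-like cells, with 95% counting intervals and 1 library per day. Most points lie left of 0 in each group, HK2, ENO1, DDIT4 and NDRG1 reach -3.74 to -4.35 in CM-like cells, and PFKM lies right of 0 in CM-like and endothelial-like cells.

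Dividing and endothelial-like cells were present on both days. Dividing cells were mostly cluster 10 at D14 (420 of 465) and mostly cluster 15 at D21 (136 of 173), and cluster 15 also held 3 markers of fibroblasts, so a change of day and a change of cell type cannot be told apart in them. In dividing cells 10 of 15 glycolytic enzymes were lower at D21 than at D14, where 18.8% of 9224 genes were, with a median of -0.84, and 11 of 16 hypoxia-response genes, with a median of -1.18. P4HA2 was higher in them, as were 11.0% of genes, from 34.0 to 78.9 CPM (log2 ratio 1.22), but it was at 14.1 CPM, from 9 UMIs, in the 37 cells of cluster 10 at D21, so its direction turned there. Over dividing cells of D14 the medians of these 37 cells were -0.84 for the glycolytic enzymes and -1.48 for the hypoxia-response genes. Their PFKL and LDHA shares, 5.51 and 25.9%, lay near the 4.36 and 23.3% of CM-like cells of D21. A change of day and a change of cell type therefore cannot be told apart in these 37 cells either. In endothelial-like cells, of which there were 53 and 38, 12 of 15 glycolytic enzymes and 17 of 17 hypoxia-response genes were lower, where 22.6% of 8983 genes were, with medians of -0.89 and -2.20. ANKRD37 went from 140 to 13.6 CPM in these cells, NDRG1 from 99.7 to 1.71 CPM and LOX from 70.1 to 1.71 CPM, the last values being 1 UMI each, while PFKM was higher, as were 29.8% of genes, from 14.0 to 40.9 CPM.

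On each day, the median glycolytic enzyme was lower in the pool of other cells than in CM-like cells. At D8 8 of 15 were lower by 1.5-fold or more and 0 higher, where 15.8% of 8740 genes were lower, with a median log2 ratio of -0.64. At D14 14 of 15 were lower, where 18.4% of 9410 genes were, with a median of -0.84, and PFKL alone was within the fold, with 66.2 CPM against 79.9 CPM. At D21 6 were lower and 2 higher of 14 at 10 CPM or more, where 25.1% of 8960 genes were lower and 23.2% higher, with a median of -0.45. The 2 higher were PFKL (58.7 against 24.9 CPM) and ENO1 (705 against 348 CPM), so the order of ENO1 between CM-like and other cells turned from D14 to D21. PFKP was the enzyme with the lowest ratio on each day, with log2 ratios of -1.78, -1.94 and -2.90.

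The hypoxia-response genes had no such order. Their median log2 ratios of other cells over CM-like cells were -0.01, -0.30 and 0.26 on the successive days. At D8 ADM, DDIT4 and ANKRD37 were higher in other cells and BNIP3, PDK1 and STC2 lower, where 11.5% of genes were higher and 15.8% lower. At D14 DDIT4 was higher, where 16.9% of genes were, and BNIP3, EGLN3, FAM162A and PDK1 were lower, where 18.4% were. At D21 6 were higher, namely BNIP3L, DDIT4, NDRG1, P4HA1, P4HA2 and STC2, where 23.2% of genes were. MXI1 and PDK1 were lower at D21, where 25.1% of genes were. PDK1 was lower in other cells on each day, with 66.7 against 167 CPM at D8, 77.1 against 283 CPM at D14 and 16.8 against 84.4 CPM at D21. DDIT4 was higher in the pool of other cells on each day, with 969 against 572, 397 against 261 and 107 against 17.5 CPM. At D8 clusters 9 and 13, described below, had high DDIT4 levels, and the pool without them was not computed.

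**Figure D5:**
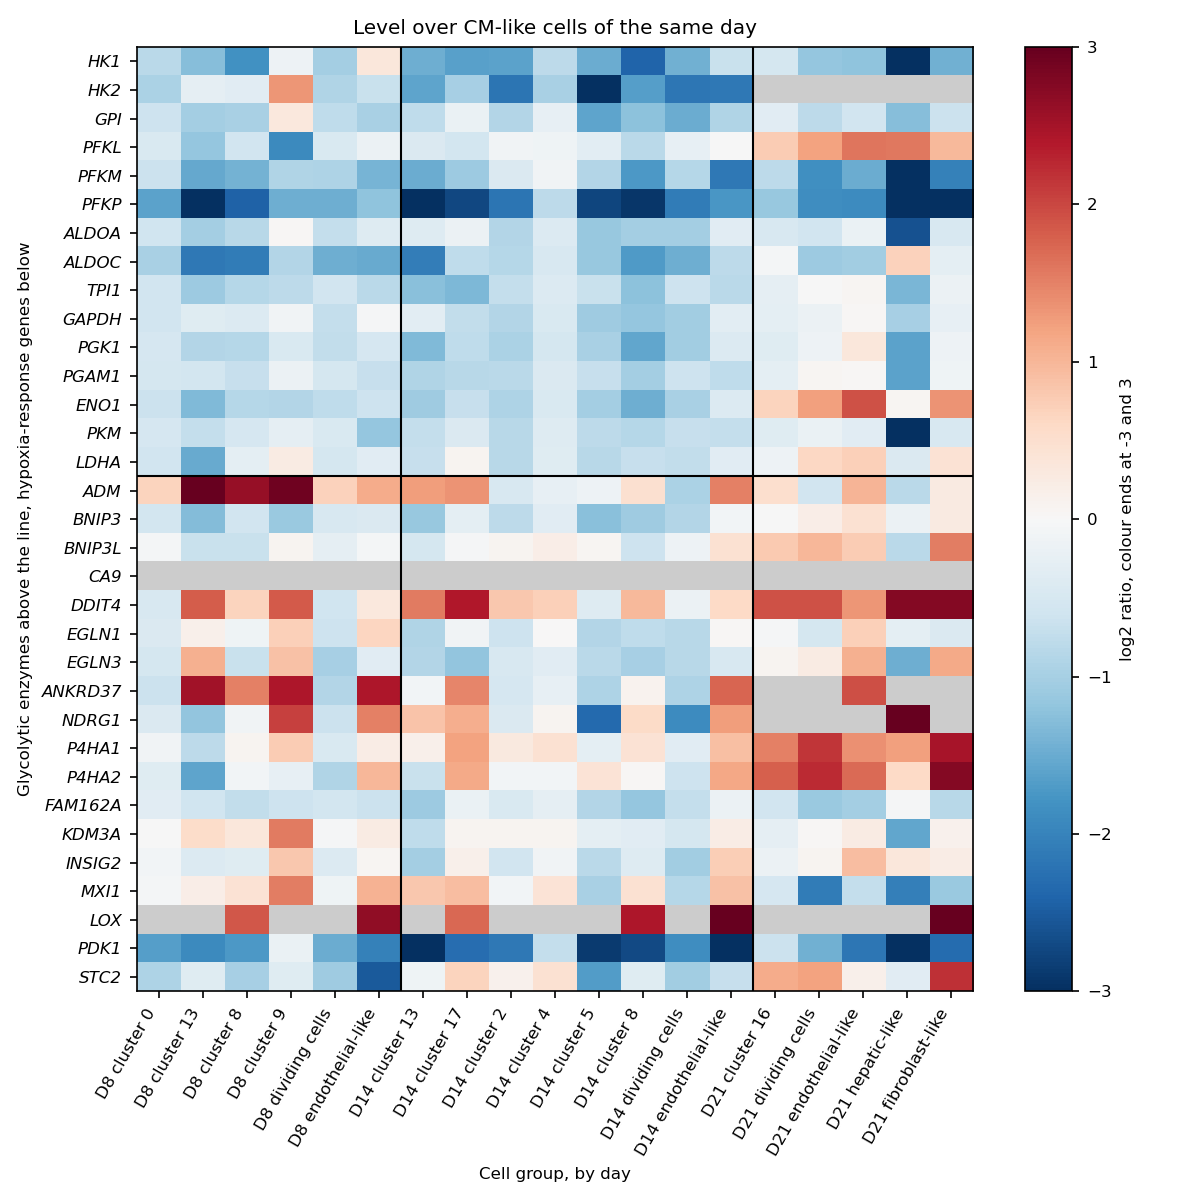
Log2 ratio of the level of each member in a cell group over CM-like cells of the same day, with the days separated by vertical lines, red for higher and blue for lower, and grey where neither side reached 10 CPM. Glycolytic enzymes are mostly blue at D8 and D14, PFKP and PDK1 are blue in nearly all groups, and cluster 9 of D8 is red for most hypoxia-response genes.

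Single clusters departed from these averages. Cluster 9, 449 cells of D8 led by NPPB, DIO3, NMB and ATF3, had the highest hypoxia-response sum of all groups with 5023 CPM, against 3371 CPM in CM-like cells of D8. Most of this difference was DDIT4 alone, at 2052 against 572 CPM. Over CM-like cells 10 of 16 members were higher there and 2 lower, where 13.3% of 8588 genes were higher and 34.8% lower, with a median of 0.78. NDRG1 stood at 161 against 38.7 CPM, ANKRD37 at 244 against 45.4 CPM, KDM3A at 98.6 against 33.5 CPM and HK2 at 162 against 64.8 CPM. BNIP3 and FAM162A were lower in cluster 9, at 296 and 616 CPM against 637 and 944 CPM. NDRG1 is among the 10 leading genes of this cluster, although it was not used to form it. The 10th and 90th percentiles of its cells were 9.97 and 97.4 hypoxia-response UMIs per 10000, so its cells differed widely. The median cell of cluster 9 had 39.0 such UMIs per 10000, against 33.0 in CM-like cells of D8 and 40.2 in cluster 17 of D14.

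ADM had its highest level in cluster 13 of D8, the 205 cells led by SFRP2, POU5F1 and SOX2, with 256 CPM against 13.5 CPM in CM-like cells. EGLN3 at 59.0 CPM, ANKRD37 at 259 CPM and DDIT4 at 2022 CPM were also higher there, as were 17.7% of genes, while 12 of 15 glycolytic enzymes were lower than in CM-like cells, where 30.1% of 8885 genes were. Of the hypoxia-response genes, P4HA1 and P4HA2 were lower there. The median cell of cluster 13 had 25.1 hypoxia-response UMIs per 10000, against 33.0 in CM-like cells of D8. Its 10th and 90th percentiles were 5.94 and 90.7. Cluster 17, 57 cells of D14 led by PMEL, ATF5 and CYP26A1 with the stress genes TRIB3 and DDIT3, had the highest hypoxia-response sum of D14 with 4361 CPM. DDIT4 stood there at 1386 CPM and P4HA1 at 423 CPM, against 261 and 182 CPM in CM-like cells, whose sum was 3143 CPM. DDIT4 thus made up most of the gap between these sums. The next sum of D14 was 3538 CPM in endothelial-like cells, and LOX was at 70.1 CPM in them, against 3.59 CPM in CM-like cells.

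The collagen-modifying members P4HA1, P4HA2 and LOX stood higher in fibroblast-like cells than in CM-like cells at D21. P4HA1 and P4HA2 were also above CM-like cells in dividing, endothelial-like and hepatic-like cells and in cluster 16 of D21, so this was not particular to fibroblast-like cells. In fibroblast-like cells, in which COL3A1 was at 2116 CPM, P4HA1 stood at 122 CPM, P4HA2 at 114 CPM and LOX at 10.1 CPM, against 21.8, 16.6 and 0.139 CPM in CM-like cells. Of 15 hypoxia-response genes 7 were higher and 3 lower there, where 23.9% of 8849 genes were higher and 25.8% lower, with a median of 0.27. Set beside cluster 5 of D14, an MGP-led cluster without a name, P4HA2 and STC2 were higher in fibroblast-like cells, at 114 and 70.5 CPM against 69.3 and 23.6 CPM, where 9.7% of 8849 genes were higher, and 9 of 16 members were lower, where 21.0% were. No label ties these clusters to each other.

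Hepatic-like cells of D21 had the lowest glycolytic sum of all groups, 4240 CPM, and 10 of 14 enzymes were lower in them than in CM-like cells, where 47.8% of 8777 genes were lower. HK1 was at 6.79 CPM, PFKP at 23.3 CPM and PKM at 77.2 CPM, against 146, 428 and 632 CPM. PFKL and ALDOC were higher, as were 19.3% of genes, at 74.5 and 45.3 CPM against 24.9 and 28.1 CPM. NDRG1 was at 27.6 CPM in them and at 1.71 to 2.68 CPM in CM-like, dividing, endothelial-like and fibroblast-like cells of D21.

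Across single CM-like cells, thinned to 4000 UMIs each, the summed glycolytic and hypoxia-response UMIs had a Pearson correlation of 0.49 over 494 cells of D8 and 0.58 over 700 cells of D14. The Spearman correlations were 0.49 and 0.59. The cells of a day share a library, and at D21 the median cell had 2 hypoxia-response UMIs after thinning, too few for such a value to be read.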

How the data were processed

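Single-cell RNA was measured in 3 droplet libraries of CCOs from the H7 line (D8, D14 and D21). The authors deposited 1 merged table of UMI counts without normalization, with genes in rows and barcodes in columns, and per the labels they used Cell Ranger, hg19 and Seurat 3.2.1. The counts were checked to be whole numbers, and the ending of each barcode gave its day.

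Cells had to show over 2000 but under 7500 genes, and less than 10% of UMIs from the 13 mitochondrial genes (8188 of 17327, with 4007 to 95021 UMIs). Seurat 5.3.0 in R 4.3.3 chose 2000 variable genes, of which 59 of the lists described here were left out, and clustered the days together from 20 principal components at a resolution of 0.8, giving 19 clusters, with no integration. Names required 3 or more class markers at 2-fold over the remaining cells of a cluster's main day, adding 10 CPM to each level, and a lead of 2 markers over any other class. They also required 20 or more cells of that day and a check on low depth. No other class could have more markers among the cluster's 10 leading genes. Doublets were not called and stayed in.

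UMIs were summed per day and group and given as CPM with exact 95% Poisson intervals. Log2 ratios have 1 count added and an exact interval from the split of the counts, and shares have Clopper-Pearson intervals. Genes at 10 CPM or more on at least 1 side were compared, and 1.5-fold was the limit of a change. The ratio and its interval were tested on counts simulated with Poisson error only. Variation between cells or libraries was not simulated, so that test does not bear on it. Python 3.11.15, numpy 2.4.6, scipy 1.17.1, pandas 2.3.3, Matrix 1.6.5 and matplotlib 3.10.9 were used, and TMM factors came from edgeR 4.0.16. UMIs of a barcode come from one library, so p-values were not computed.

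The members, the lists of related genes and the comparisons were chosen with earlier results of these data known. Every member is described. Of each related list, up to 3 genes each way with the largest fold past the limit are named. Alternatives were other mitochondrial limits, resolutions, variable genes, a gate (at least 5 of 9 CM markers in cells thinned to 4000 UMIs), scalings, equal weight of cells and no level filter. Lists of ATF4 targets and of dissociation genes were computed too. In CM-like cells, ATF4 genes had a median log2 ratio of 0.66 in the first interval between days and -0.47 in the second, and dissociation genes 1.14 and -0.23.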

Additional observations from a re-analysis of the deposited data

Results flagged for a closer look

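A total of 3 members moved in opposite directions, each by 1.5-fold or more, in CM-like and in other cells, which is what singled them out. The difference was not tested, since each day has 1 library. The mix of other cells changed between days, as given above, and its part in their ratios was not tested either. HK2 had a log2 ratio of D14 over D8 of 0.84 in CM-like cells and -0.90 in other cells. ADM had 1.36 and -1.18 for the same days. PFKM had a log2 ratio of D21 over D14 of 0.79 in CM-like cells and -0.75 in other cells. In each case the sign in CM-like cells turned under 1 alternative, given with the processing.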

How the results depend on the processing

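The lower level of both lists in CM-like cells at D21 than at D14 was found under each alternative that gave a value. With a mitochondrial limit of 5%, 2 CM-like cells were left at D21, and no value with D21 was computed. Leaving out a replicate was not possible, and no paired analysis was possible because each day has 1 library. The gate took 557, 1684 and 1568 cells as CM-like at D8, D14 and D21, where clustering took 494, 700 and 535. It therefore also took cells that clustering placed elsewhere, and these were most of its cells at D14 and D21. Of the 28 members past 1.5-fold from D14 to D21, 278 of 280 values under alternatives had the same direction; the gate turned PFKM to -0.17 and P4HA2 to 0.27. Of the 7 from D8 to D14, 68 of 70 had; the gate turned HK2 to -0.089 and a resolution of 0.4 turned ADM to -0.16. The cause of these shifts was not tested.

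For the glycolytic enzymes in CM-like cells, the median log2 ratio of D14 over D8 (0.16) was 0.10 with TMM factors, 0.091 with median-of-ratios factors, 0.35 at a mitochondrial limit of 5%, 0.32 at a resolution of 0.4, -0.041 with the gate and 0.00070 with list genes kept among the variable genes. The ratio of D21 over D14 (-1.51) was -1.29 with TMM factors, -1.25 with median-of-ratios factors, -1.41 at a resolution of 0.4 and -1.40 with list genes kept. For the hypoxia-response genes, D14 over D8 (0.01) was 0.36 at a mitochondrial limit of 5%, -0.12 at a resolution of 0.4, -0.17 with the gate and -0.15 with list genes kept, and D21 over D14 (-2.29) was -1.89 with the gate.

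For other cells over CM-like cells, the glycolytic median at D8 (-0.64) was -0.57 with TMM factors, -0.68 with cells weighted equally, -0.50 and -0.70 at mitochondrial limits of 20 and 5%, -0.48 at a resolution of 0.4 and -0.67 without GAPDH. At D14 (-0.84) it was -0.88 over nuclear genes, -0.82 with TMM factors, -0.87 with median-of-ratios factors, -0.77 and -1.04 at limits of 20 and 5%, -0.78 both with the gate and with list genes kept, and -0.85 without GAPDH. At D21 (-0.45) it was -0.36 with TMM factors, -0.40 with cells weighted equally, -0.27 at a limit of 20% and -0.37 with the gate. The hypoxia-response median at D8 (-0.01) was 0.11 at a limit of 20%, -0.28 at a resolution of 0.4 and -0.20 with the gate, and at D14 (-0.30) it was -0.76 at a limit of 5% and -0.45 at a resolution of 0.4.

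At 2-fold, a limit added after seeing the data, as were the values without GAPDH and without cluster 18, 0 glycolytic enzymes and 1 hypoxia-response gene were higher in CM-like cells from D8 to D14, in place of 2 and 4, and 2, 4 and 3 glycolytic enzymes were lower in other cells at D8, D14 and D21, in place of 8, 14 and 6. With the gate 0 and 1 were higher from D8 to D14, and with list genes kept 1 glycolytic enzyme was. At a limit of 20%, 5 enzymes were lower in other cells at D8.

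Of the isoform shares in CM-like cells, a limit of 20% moved PFKM to 19.9% at D8 and 14.2% at D14, LDHA to 62.1, 69.7 and 20.8% at D8, D14 and D21, and P4HA2 to 20.2% at D8. A resolution of 0.4 moved HK2 to 41.5% at D8, PFKM to 20.8% at D8 and 14.1% at D14, ALDOC to 3.94% at D8, LDHA to 63.4% and 70.0%, and P4HA2 to 17.7% and 19.4% at D8 and D14. At that resolution the HK2 share was not higher at D14 than at D8, since its D14 value stayed within the counting interval of 36.6 to 40.2%. Thinning to 4000 UMIs moved HK2 to 30.5% at D8 and 41.4% at D14, LDHA to 25% at D21 and EGLN3 to 41.1% at D8. The other 193 values of lists, counts and shares stayed within the counting interval or within 1.5 times the count.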
